A study of Mus musculus with 24 samples.

Results

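Collagens other than type IV and the genes that modify, fold and crosslink them were followed in distal lung tissue of bleomycin-treated mice. Members were chosen by gene symbol: every collagen alpha chain gene outside type IV, together with the lysyl hydroxylases *Plod1*, *Plod2* and *Plod3*, the prolyl hydroxylase subunits *P4ha1*, *P4ha2* and *P4ha3*, the chaperone *Serpinh1*, the procollagen processing enhancer *Pcolce*, and the lysyl oxidase-like genes *Loxl3* and *Loxl4*. The Illumina MouseWG-6 v2 chip measured 45 such genes, 35 collagens and 10 processing genes, with 98 of its 45281 probes. *Col6a3*, *Col12a1*, *Col20a1* and *Loxl2* were not analysed here.

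All 24 mice were female C57BL/6 aged 12.5 weeks, with 6 mice and 6 arrays in each of 4 groups. EXT9-treated mice received bleomycin (BLM, 50 IE per dose, s.c., 3 times per week for 2 weeks) with EXT9 (30 mg/kg p.o. daily), EXT5-treated mice received the same BLM with EXT5 (30 mg/kg p.o. daily), BLM-treated mice received BLM with the vehicle (2.5% Tween80), and saline controls received s.c. saline with the vehicle. EXT5 and EXT9 are antagonists of the serotonin receptor 5-HT2B, given from the first dose of BLM, and no mouse received either compound without BLM. Bleomycin breaks DNA and scars the lung when given repeatedly. Whole tissue was measured, so that fewer cells of a type and less RNA per cell cannot be told apart.

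Collagen chains are hydroxylated on proline and lysine in the endoplasmic reticulum, fold into triple helices with the help of the chaperone Hsp47 (*Serpinh1*), and are secreted, trimmed, assembled and crosslinked outside the cell. Types I, III and V form the fibrils of the lung interstitium, type VI forms beaded microfibrils close to cells, and types XV and XVIII lie near basement membranes. In fibrosis, fibrillar collagen accumulates in the alveolar walls, and the crosslinks that follow from lysyl hydroxylation make the matrix stiffer.

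Signals are given as log2 intensity, and a change is the difference of group means on this scale. The arrays fall into 2 runs, recognised by their common distributions of values: the first holds 3 BLM-treated mice and 3 saline controls, and the second holds all 12 EXT-treated mice, 3 BLM-treated mice and 3 saline controls. Changes were fitted with limma on the 24 arrays together, with the run entered as a block, and a probe was called at an adjusted p under 0.05 over all 45281 probes. Of the 98 member probes, 52 differed between the runs and all 52 were lower in the second, and over the whole chip 51.4% of probes were lower in the second run. *Col3a1* (ILMN_1258629) and *Col1a2* (ILMN_1253806) differed most among the members, by -1.04 and -0.84 in the second run relative to the first. Unless a run is named, the ranges of BLM-treated mice and saline controls hold both runs. For probes that differ between the runs, such ranges cannot be set directly against those of EXT-treated mice.

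Of the 45 genes, 33 had at least 1 bright probe, meaning a mean log2 signal above the median of the chip (6.705), and 12 had dim probes alone, among them *Col2a1* of cartilage, *Col10a1* of the growth plate, *Col6a4*, *Col6a5* and *Col6a6*. By structure, 9 of 11 fibrillar collagens, 2 of 5 type VI chains, 4 of 7 fibril-associated collagens, 10 of 12 other collagens and 8 of 10 processing genes had a bright probe. Of the lists that mark cell types, all 6 markers each of alveolar type 1 and alveolar type 2 cells and all 9 fibroblast markers were bright, whereas 2 of 9 chondrocyte markers were.

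Few members changed. In BLM-treated mice relative to saline controls, 1 member probe was called, against 0.13% of all probes. In EXT9-treated mice relative to BLM-treated mice, 2 member probes were called, against 1.96% of all probes, and in EXT5-treated mice relative to BLM-treated mice 0 were called, against 1.14%. Between EXT9-treated and EXT5-treated mice 0 member probes were called, against 0.181%. Relative to saline controls, 8 member probes were called in EXT9-treated mice, against 7.43%, and 4 in EXT5-treated mice, against 4.37%. Each EXT group had a share of members called near that of all probes, and the BLM comparison rested on 1 probe. At an unadjusted p under 0.05, 14 member probes passed in BLM-treated mice relative to saline controls (14.3%, against 8.96% of all probes). With EXT9 17 passed relative to BLM-treated mice (17.3%, against 16% of all probes), as did 15 with EXT5 (15.3%, against 12.6%), and 11 passed between EXT9 and EXT5 (11.2%, against 11.7%). In the comparisons with saline controls, 21 passed with EXT9 (21.4%, against 21.6%) and 22 with EXT5 (22.4%, against 14.6%). The median change over the 98 probes lay between -0.01 and 0.02 in the 6 comparisons, and that over all probes was 0.00 in each.

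**Figure D1:**
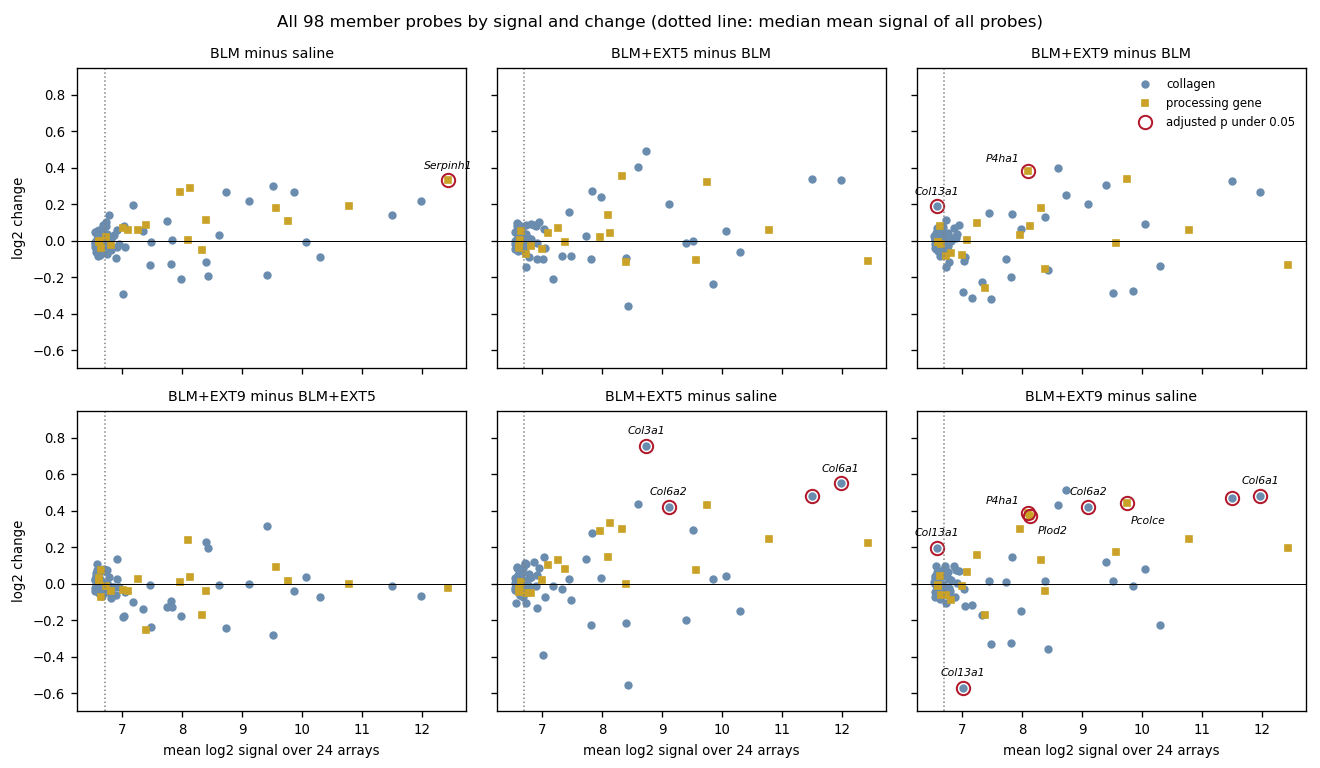
Mean log2 signal over 24 arrays (horizontal) and log2 change (vertical) of the 98 member probes in 6 comparisons, with collagens as circles, processing genes as squares and probes at an adjusted p under 0.05 ringed in red. The called probes of type VI collagen, unlabelled for the probe ILMN_1259388 of *Col6a1*, stand at 0.42 to 0.55 above saline controls in both EXT groups.

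The chaperone *Serpinh1*, whose product Hsp47 binds procollagen in the endoplasmic reticulum, was the only member called with BLM alone. The log2 signal of its probe ILMN_2777359 had a lowest, median and highest value of 12.43, 12.58 and 12.72 in BLM-treated mice, against 12.18, 12.26 and 12.33 in saline controls. Every BLM-treated mouse was above every saline control. The change was 0.33 ± 0.06 (SE, n = 6 each), 1.26-fold, with an adjusted p of 0.0241. Within runs it was 0.30 (first) and 0.36 (second), with adjusted p-values of 0.127 and 0.468 and 3 mice per group. The second probe, ILMN_2822850, changed by -0.05 in the same comparison and was not called, so that the call rests on 1 of 2 probes. It was lost without any 1 of saline controls 1, 2 and 5 or BLM-treated mice 3, 4 and 6, with changes of 0.30 to 0.34 and adjusted p-values of 0.054 to 0.0754.

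EXT-treated mice lay between these groups for ILMN_2777359. The lowest, median and highest values were 12.21, 12.43 and 12.59 in EXT9-treated mice and 12.24, 12.47 and 12.59 in EXT5-treated mice, and both ranges overlapped those of BLM-treated mice and of saline controls. The change relative to BLM-treated mice was -0.13 ± 0.07 with EXT9 (adjusted p = 0.338) and -0.11 ± 0.07 with EXT5 (adjusted p = 0.567). Relative to saline controls, *Serpinh1* was 0.20 ± 0.07 higher with EXT9 (adjusted p = 0.0779) and 0.22 ± 0.07 higher with EXT5 (adjusted p = 0.0665), neither of them called. The probe ILMN_2822850 changed by 0.18 with EXT9 and by 0.35 with EXT5 relative to BLM-treated mice, opposite in sign to the brighter probe. Relative to saline controls it changed by 0.13 with EXT9 and 0.30 with EXT5, not called, so that it did not lie between the groups. ILMN_2822850 differed by -0.41 in the second run relative to the first (adjusted p = 0.00305).

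**Figure D2:**
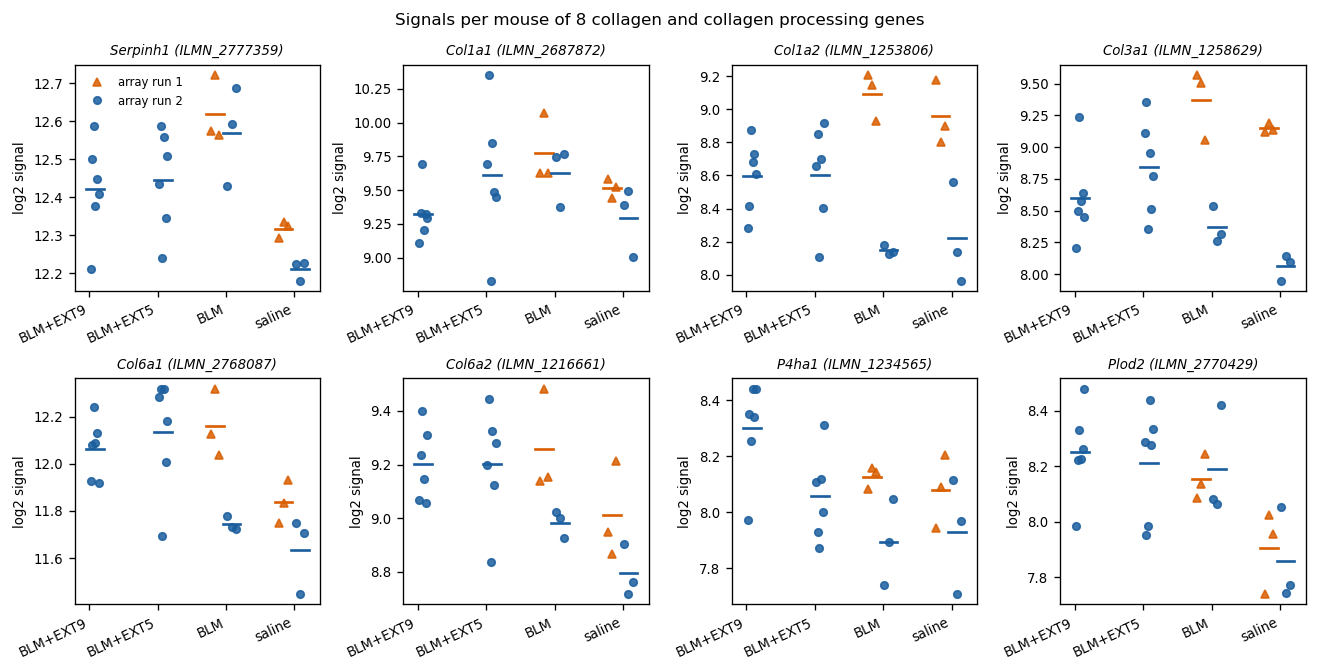
Log2 signals of 8 probes in each mouse, from EXT9-treated mice at the left to saline controls at the right, with triangles for the first array run, circles for the second and lines at the mean of a group within a run. *Serpinh1* is higher in all 6 BLM-treated mice than in all 6 saline controls, and *Col1a2* and *Col3a1* separate by array run within BLM-treated mice and saline controls.

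For some of the genes with called probes, the 250 bases before the annotated start are shown, taken from RefSeq (GRCm38.p6), which had entries for 36 of the 45 members. They are shown 5′ to 3′ on the strand of the gene for *Serpinh1*, for the neighbouring pair *Col6a1* and *Col6a2* whose probes moved together, and for *Col3a1*. Capitals mark the TATA motif TATAAA, the CCAAT motif and the GC box GGGCGG on either strand, so that a run of CCGCCC is a GC box read on the opposite strand, and overlapping matches are marked through.
Serpinh1, chr7:99353240-99353489, minus strand: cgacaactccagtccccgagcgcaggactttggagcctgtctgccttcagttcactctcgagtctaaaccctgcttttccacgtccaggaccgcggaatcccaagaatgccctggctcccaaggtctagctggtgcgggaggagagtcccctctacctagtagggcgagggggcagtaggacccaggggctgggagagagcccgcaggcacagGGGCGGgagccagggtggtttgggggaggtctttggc
Col6a1, chr10:76726045-76726294, minus strand: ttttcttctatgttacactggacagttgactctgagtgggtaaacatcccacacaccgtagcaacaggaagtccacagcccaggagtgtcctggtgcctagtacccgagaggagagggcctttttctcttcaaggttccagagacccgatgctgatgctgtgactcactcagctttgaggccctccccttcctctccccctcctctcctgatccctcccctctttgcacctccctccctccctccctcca
Col6a2, chr10:76623631-76623880, minus strand: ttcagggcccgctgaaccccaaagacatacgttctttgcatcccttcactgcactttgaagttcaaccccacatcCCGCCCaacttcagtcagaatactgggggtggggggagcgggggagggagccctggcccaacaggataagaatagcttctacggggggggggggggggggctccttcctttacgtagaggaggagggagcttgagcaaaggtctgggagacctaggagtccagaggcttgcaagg
Col3a1, chr1:45311288-45311537, plus strand: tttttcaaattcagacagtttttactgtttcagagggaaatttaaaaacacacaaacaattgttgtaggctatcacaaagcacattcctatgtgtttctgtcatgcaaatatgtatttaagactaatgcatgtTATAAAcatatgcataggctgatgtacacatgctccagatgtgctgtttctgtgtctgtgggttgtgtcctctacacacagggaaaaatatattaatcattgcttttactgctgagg
The windows of *Serpinh1* and *Col6a2* hold the GC box, the one of *Col3a1* holds the TATA motif, and the one of *Col6a1* holds none of the 3 motifs. *P4ha1*, *Pcolce* and *Col13a1* also had called probes and an entry, and their windows are not shown. Those of *P4ha1* and *Pcolce* hold the GC box and that of *Col13a1* the TATA motif. Of the 36 members with an entry, 25 held the GC box in at least 1 window, against 32.7% of all 32851 windows of this length. The CCAAT motif was in 11 of the 36, against 33.8%, and the TATA motif in 6, against 12.4%. The member counts are of 36 genes with 39 windows, whereas the percentages are of single windows. The windows were not matched for GC content, and these differences were not tested. For *Col6a2* the window before the outermost of its annotated starts is shown.

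The interstitial fibrillar collagens were not called with BLM. *Col1a1*, a chain of type I collagen, had a lowest, median and highest log2 signal of 9.38, 9.69 and 10.07 in BLM-treated mice, against 9.002, 9.46 and 9.58 in saline controls. The ranges overlapped, and the change was 0.30 ± 0.17 (adjusted p = 0.647). Within runs it was 0.26 (first) and 0.34 (second). *Col1a1* ranged from 9.11 to 9.70 in EXT9-treated mice (median 9.31) and from 8.83 to 10.35 in EXT5-treated mice (median 9.59), so that the lowest and the highest of all 24 values belonged to EXT5-treated mice. The change relative to BLM-treated mice was -0.29 ± 0.19 with EXT9 (adjusted p = 0.487) and -0.00 ± 0.19 with EXT5 (adjusted p = 0.999).

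*Col1a2*, the other chain of type I collagen, split by run. Its values were 8.93, 9.15 and 9.20 in first-run BLM-treated mice, against 8.80, 8.90 and 9.18 in first-run saline controls. In the second run they were 8.12, 8.14 and 8.18 in BLM-treated mice, against 7.96, 8.14 and 8.56 in saline controls. In these groups no value of the second run reached the first. EXT9-treated mice, all in the second run, had values from 8.28 to 8.88 (median 8.64) and EXT5-treated mice from 8.10 to 8.91 (median 8.68). The change was 0.40 ± 0.14 with EXT9 (adjusted p = 0.149) and 0.41 ± 0.14 with EXT5 (adjusted p = 0.176) relative to BLM-treated mice, and 0.03 ± 0.13 with BLM relative to saline controls (adjusted p = 0.973). Thus the chains of type I collagen had unlike estimates in EXT9-treated mice, where *Col1a1* stood at -0.29 and *Col1a2* at 0.40, and the difference between the genes was not tested. With no run term, *Col1a2* changed by -0.02 with either compound relative to BLM-treated mice.

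*Col3a1*, the chain of type III collagen, was the fibrillar collagen that was called, in EXT5-treated mice relative to saline controls. The log2 signals of ILMN_1258629 had a lowest, median and highest value of 8.36, 8.86 and 9.35 in EXT5-treated mice. In the second run they were 8.26, 8.32 and 8.54 in BLM-treated mice and 7.95, 8.10 and 8.14 in saline controls, and in the first run 9.06, 9.50 and 9.56 in BLM-treated mice and 9.12, 9.13 and 9.19 in saline controls. All EXT5-treated mice were above the saline controls of their own run, and only the highest of them was above the saline controls of the first run. The change relative to saline controls was 0.76 ± 0.17, 1.69-fold, with an adjusted p of 0.0117, and 0.78 in the second run alone (adjusted p = 0.073). Without a term for the run it was 0.24 (adjusted p = 0.581), and without saline control 2 it was 0.71 (adjusted p = 0.055), not called; adjusted p-values ran from 0.00618 to 0.581 over 11 other settings.

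In EXT9-treated mice *Col3a1* ranged from 8.20 to 9.24 (median 8.54), also above the second-run saline controls in every mouse, and changed by 0.52 ± 0.17 relative to saline controls (adjusted p = 0.0675). Relative to BLM-treated mice the change was 0.25 ± 0.17 with EXT9 (adjusted p = 0.508) and 0.49 ± 0.17 with EXT5 (adjusted p = 0.176), and for EXT9 it was -0.27 without a term for the run. With BLM relative to saline controls it was 0.27 ± 0.15 (adjusted p = 0.652). The dimmer probe, ILMN_2683958, changed by 0.03 with EXT9 and 0.05 with EXT5 relative to saline controls, and by -0.12 and -0.09 relative to BLM-treated mice.

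Type V collagen is a minor component of the fibrils that sets their diameter. *Col5a1* had a lowest, median and highest value of 9.77, 10.20 and 10.31 in BLM-treated mice, against 9.46, 9.88 and 10.18 in saline controls. It ranged from 9.36 to 9.94 in EXT9-treated mice and from 9.11 to 10.05 in EXT5-treated mice. The change was 0.27 ± 0.13 with BLM (adjusted p = 0.566), and -0.28 ± 0.15 with EXT9 and -0.24 ± 0.15 with EXT5 relative to BLM-treated mice (adjusted p = 0.362 and 0.567). None was called, and the groups overlapped apart from the first-run BLM-treated mice, which were at 10.29, 10.30 and 10.31. *Col5a1* differed by -0.345 in the second run relative to the first (adjusted p = 0.0321), so signals of the first run cannot be set directly against those of EXT-treated mice. *Col5a2* changed by 0.08 ± 0.07 with BLM (adjusted p = 0.795), with 6.93 to 7.44 (median 7.10) in BLM-treated mice, against 6.83 to 7.23 (median 7.05) in saline controls. It ranged from 6.73 to 7.01 (median 6.93) in EXT9-treated mice and from 6.88 to 7.31 (median 7.06) in EXT5-treated mice, a difference of -0.18 ± 0.07 between the compounds (adjusted p = 0.298). *Col5a2* (ILMN_2470069) differed by -0.26 in the second run relative to the first (adjusted p = 0.00517). In the second run it was at 6.93, 6.99 and 7.10 in BLM-treated mice and at 6.83, 6.92 and 7.01 in saline controls. Over all 27 probes of the fibrillar collagens, the changes with BLM ran from -0.10 to 0.30 with a median of 0.02, and 16 were positive.

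Type VI collagen gave the calls that both EXT groups shared once the run was blocked, whereas no type VI probe was called in both groups when the run was left out of the fit. *Col6a1* and *Col6a2* code for chains of the type VI heterotrimer and lie next to each other on chromosome 10. For *Col6a1* (ILMN_2768087), the lowest, median and highest values were 11.92, 12.09 and 12.24 in EXT9-treated mice and 11.69, 12.23 and 12.32 in EXT5-treated mice. In the second run *Col6a1* was at 11.72, 11.73 and 11.78 in BLM-treated mice and at 11.45, 11.71 and 11.75 in saline controls. Every EXT9-treated mouse and all but 1 of the EXT5-treated mice were above all of these. In the first run it was at 12.04, 12.13 and 12.32 in BLM-treated mice and at 11.75, 11.83 and 11.93 in saline controls. This probe differed by -0.31 in the second run relative to the first (adjusted p = 0.00886), so signals of the first run cannot be set directly against those of the EXT-treated mice.

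Relative to saline controls, *Col6a1* changed by 0.48 ± 0.10 with EXT9 (1.40-fold, adjusted p = 0.00548) and by 0.55 ± 0.10 with EXT5 (1.47-fold, adjusted p = 0.003). In the second run alone the changes were 0.43 (adjusted p = 0.059) and 0.50 (adjusted p = 0.045). The call with EXT9 was lost with no run term (0.33, adjusted p = 0.0508), and the one with EXT5 with the compared groups alone (adjusted p = 0.103). A second probe of *Col6a1*, ILMN_1259388, was called as well, with 0.47 ± 0.12 for EXT9 (adjusted p = 0.021) and 0.48 ± 0.12 for EXT5 (adjusted p = 0.024). Its lowest, median and highest values were 11.29, 11.60 and 11.87 in EXT9-treated mice, 11.09, 11.68 and 11.82 in EXT5-treated mice, 11.17, 11.45 and 11.91 in BLM-treated mice, and 10.94, 11.38 and 11.71 in saline controls. These ranges overlapped over the runs, and the probe differed by -0.49 in the second run relative to the first (adjusted p = 0.00162). Without saline control 4 both calls of this probe were lost (0.42 with EXT9, adjusted p = 0.0827, and 0.43 with EXT5, adjusted p = 0.109), and the one with EXT5 was lost also without EXT5-treated mouse 1, 2 or 4. Its changes with no run term were 0.22 with EXT9 (adjusted p = 0.308) and 0.24 with EXT5 (adjusted p = 0.328), neither called. Both calls were lost as well in second-run arrays alone (adjusted p = 0.118 and 0.153), with the compared groups alone (0.0996 and 0.183) and with the replicate number as a block (0.0569 and 0.0702). The third probe of *Col6a1*, ILMN_2589422, was near the median signal of the chip and changed by 0.10 with EXT9 and 0.11 with EXT5, not called.

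*Col6a2* (ILMN_1216661) behaved alike. The lowest, median and highest values were 9.06, 9.19 and 9.40 in EXT9-treated mice and 8.84, 9.24 and 9.44 in EXT5-treated mice, against 8.72, 8.89 and 9.21 in saline controls. This probe differed by -0.25 in the second run relative to the first (adjusted p = 0.0236). All EXT9-treated mice were above the second-run saline controls, whose values were 8.72, 8.76 and 8.90. The change was 0.42 ± 0.10 with EXT9 (1.34-fold, adjusted p = 0.00973) and 0.42 ± 0.10 with EXT5 (1.34-fold, adjusted p = 0.0131), and 0.41 with each in the second run alone (adjusted p = 0.046 and 0.064). Without saline control 4 the change with EXT5 was 0.40 and not called (adjusted p = 0.0555), and with no run term it was 0.30 and not called (adjusted p = 0.0707). With the compared groups alone the change with EXT5 was not called either (adjusted p = 0.138). The second probe, ILMN_1258759, changed by 0.15 with EXT9 and by 0.28 with EXT5 and was not called. Both EXT groups share their saline controls, so these changes are not independent of each other.

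Relative to BLM-treated mice, the type VI genes were not called. *Col6a1* (ILMN_2768087) changed by 0.27 ± 0.10 with EXT9 (adjusted p = 0.184) and 0.33 ± 0.10 with EXT5 (adjusted p = 0.109), and *Col6a2* (ILMN_1216661) by 0.20 ± 0.10 with each (adjusted p = 0.303 and 0.387). With BLM relative to saline controls, *Col6a1* changed by 0.22 ± 0.09 (adjusted p = 0.46) and *Col6a2* by 0.22 ± 0.09 (adjusted p = 0.417), and *Col6a2* ranged from 8.93 to 9.48 in BLM-treated mice (median 9.08). *Col6a1* was 0.32 higher with BLM in the first run and 0.11 higher in the second.

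**Figure D3:**
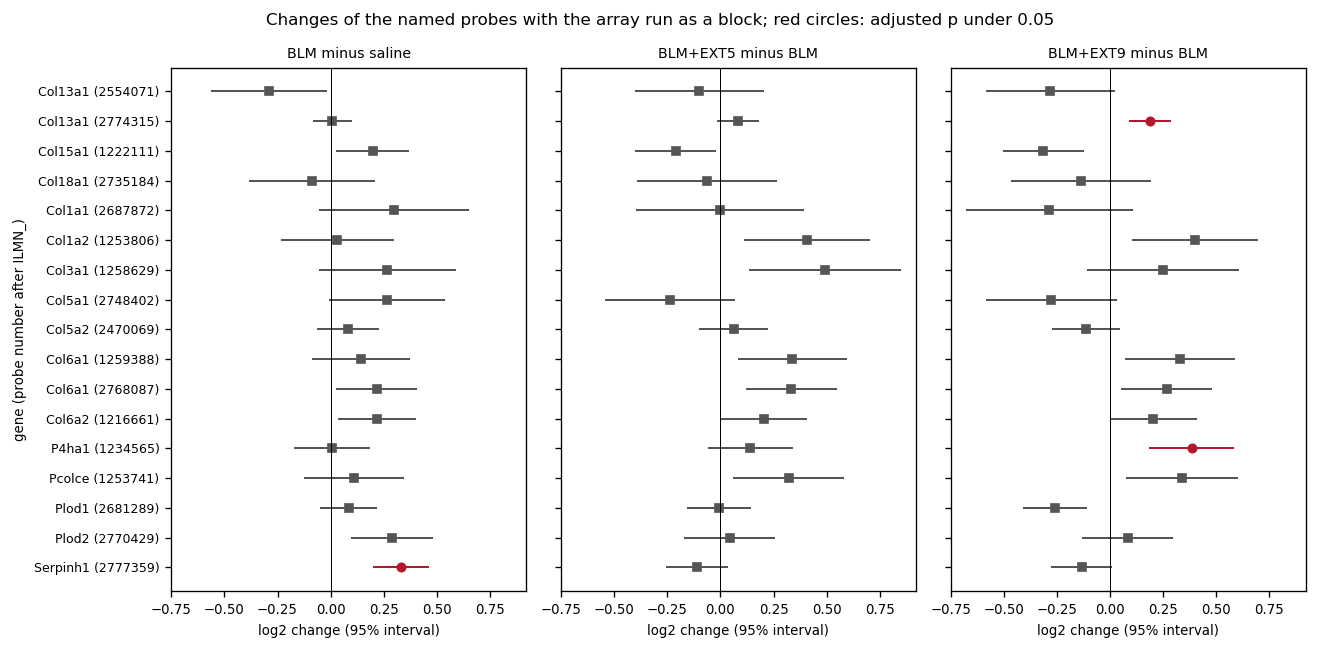
Log2 changes with 95% intervals of 17 probes of the named genes, for BLM-treated mice relative to saline controls and for EXT5- and EXT9-treated mice relative to BLM-treated mice. Called probes are red circles: *Serpinh1* with BLM, and *P4ha1* and *Col13a1* (ILMN_2774315) with EXT9.

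Among the enzymes, *P4ha1*, a catalytic subunit of prolyl 4-hydroxylase, was called in EXT9-treated mice. The log2 signal of ILMN_1234565 had a lowest, median and highest value of 7.97, 8.34 and 8.44 in EXT9-treated mice and 7.87, 8.06 and 8.31 in EXT5-treated mice, against 7.74, 8.07 and 8.16 in BLM-treated mice and 7.71, 8.03 and 8.21 in saline controls. All but 1 of the EXT9-treated mice were above every BLM-treated mouse and every saline control. The change with EXT9 was 0.38 ± 0.09 relative to BLM-treated mice (adjusted p = 0.0339) and 0.39 ± 0.09 relative to saline controls (1.31-fold, adjusted p = 0.0133). With EXT5 it was 0.14 ± 0.09 relative to BLM-treated mice (adjusted p = 0.618), and EXT9 and EXT5 differed by 0.24 ± 0.08 (95% interval 0.07 to 0.42, adjusted p = 0.237), which was not called.

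In the second run alone, *P4ha1* changed by 0.40 with EXT9 relative to BLM-treated mice (adjusted p = 0.103), and without BLM-treated mouse 1 the change was 0.33 (adjusted p = 0.148). Leaving out the run term gave 0.29, not called (adjusted p = 0.0682). It also lost its call without any 1 of saline control 5, BLM-treated mouse 4 or EXT9-treated mice 2, 4, 5 and 6, with changes of 0.36 to 0.38. With the compared groups alone it was not called either (adjusted p = 0.0513). Relative to saline controls, the call was lost without saline control 4 (0.32, adjusted p = 0.0686). That call was lost also in second-run arrays alone (0.37, adjusted p = 0.093) and with the compared groups alone (adjusted p = 0.125). The other probe of *P4ha1*, ILMN_1215502, changed by 0.10 with EXT9 relative to BLM-treated mice. *P4ha2*, the alternative catalytic subunit, changed by -0.01 (ILMN_2777082) and -0.15 (ILMN_2789562) in this comparison and was not called.

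The lysyl hydroxylases differed among themselves. *Plod2*, the enzyme that hydroxylates the telopeptides from which the stable crosslinks form, had a lowest, median and highest value of 7.98, 8.24 and 8.48 in EXT9-treated mice, 7.95, 8.28 and 8.44 in EXT5-treated mice and 8.06, 8.11 and 8.42 in BLM-treated mice, against 7.74, 7.86 and 8.05 in saline controls. All BLM-treated mice were above every saline control. *Plod2* (ILMN_2770429) changed by 0.37 ± 0.10 with EXT9 (1.29-fold, adjusted p = 0.0268), by 0.33 ± 0.10 with EXT5 (adjusted p = 0.0653) and by 0.29 ± 0.09 with BLM (adjusted p = 0.256), each relative to saline controls, and only the first was called. That call was lost without saline control 4 or 6 or EXT9-treated mouse 3 or 6, with changes of 0.33 to 0.36. It was lost also in second-run arrays alone (0.39, adjusted p = 0.0928) and with the compared groups alone (adjusted p = 0.0838). The probe ILMN_2819929 of *Plod2* changed by 0.30, 0.29 and 0.27 in the same comparisons, while the dim probe ILMN_2495956 changed by -0.09, -0.05 and -0.02. Relative to BLM-treated mice, *Plod2* changed by 0.08 with EXT9 and 0.04 with EXT5.

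*Plod1*, which hydroxylates lysine in the helix, had a lowest, median and highest value of 7.06, 7.21 and 7.38 in EXT9-treated mice and 7.36, 7.44 and 7.69 in EXT5-treated mice, against 7.28, 7.51 and 7.62 in BLM-treated mice and 7.32, 7.36 and 7.58 in saline controls. EXT9-treated mice were the lowest group and overlapped the others at their upper end. The change with EXT9 was -0.26 ± 0.07 relative to BLM-treated mice (adjusted p = 0.0569) and -0.25 ± 0.06 relative to EXT5-treated mice (95% interval -0.38 to -0.12, adjusted p = 0.0909), neither of them called, and -0.17 ± 0.07 relative to saline controls (adjusted p = 0.145). Without a term for the run the first of these was called (-0.28, adjusted p = 0.0165), as it was with array weights and over the bright probes alone, and its adjusted p-values ran from 0.0165 to 0.127 over 11 other settings. *Plod3* (ILMN_2723058) changed by 0.25 with either compound and by 0.19 with BLM relative to saline controls and was not called.

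*Pcolce*, which enhances removal of the C-terminal propeptide of fibrillar procollagens, had a lowest, median and highest value of 9.67, 9.83 and 10.10 in EXT9-treated mice and 9.61, 9.79 and 10.23 in EXT5-treated mice, against 9.24, 9.77 and 10.08 in BLM-treated mice and 9.26, 9.68 and 9.89 in saline controls. The groups overlapped. Relative to saline controls it changed by 0.44 ± 0.12 with EXT9 (1.36-fold, adjusted p = 0.0307) and by 0.43 ± 0.12 with EXT5 (adjusted p = 0.0511), a difference of 0.02 between the compounds, and the 95% interval of that difference ran from -0.21 to 0.25. Without a term for the run the change with EXT9 was 0.25 (adjusted p = 0.216), and the call was lost also without saline control 2 or 4 or EXT9-treated mouse 3 or 4, with changes of 0.39 to 0.45. In second-run arrays alone (0.39, adjusted p = 0.16) and with the compared groups alone (adjusted p = 0.107) it was lost as well. Relative to BLM-treated mice *Pcolce* changed by 0.34 ± 0.12 with EXT9 (adjusted p = 0.171) and by 0.32 ± 0.12 with EXT5 (adjusted p = 0.241).

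Among the other collagens, *Col13a1*, a transmembrane collagen of cell adhesion sites, had probes called in opposite directions. The probe ILMN_2554071 had a lowest, median and highest value of 6.51, 6.70 and 6.97 in EXT9-treated mice, against 6.92, 7.32 and 8.04 in saline controls, and fell by 0.57 ± 0.14 with EXT9 relative to saline controls (adjusted p = 0.0172). The groups overlapped in 6.92 to 6.97. BLM-treated mice ranged from 6.73 to 7.33 for ILMN_2554071, with a change of -0.29 relative to saline controls, not called. With EXT9 relative to BLM-treated mice this probe was not called, and its change ran from -0.35 to -0.21 over 11 other settings. The dim probe ILMN_2774315 had 6.56, 6.66 and 6.73 in EXT9-treated mice, against 6.42, 6.53 and 6.72 in BLM-treated mice and 6.43, 6.54 and 6.75 in saline controls, and rose by 0.19 ± 0.05 relative to BLM-treated mice (adjusted p = 0.0328) and by 0.20 ± 0.05 relative to saline controls (adjusted p = 0.0106). ILMN_2774315 differed by -0.18 in the second run relative to the first (adjusted p = 0.00193). With no run term the changes of ILMN_2774315 were 0.10 relative to BLM-treated mice (adjusted p = 0.274) and 0.11 relative to saline controls (adjusted p = 0.191), neither called. The call relative to BLM-treated mice was lost also without BLM-treated mouse 1, 4 or 6 or EXT9-treated mouse 3, 4 or 5, with changes of 0.17 to 0.20. With the compared groups alone both calls of ILMN_2774315 were lost as well (adjusted p = 0.0538 relative to BLM-treated mice and 0.0882 relative to saline controls). Without saline control 2 the change of ILMN_2554071 was -0.33 and was still called (adjusted p = 0.0453). Its call was lost in second-run arrays alone (-0.64, adjusted p = 0.057) and with the compared groups alone (adjusted p = 0.118). No direction is given for *Col13a1* as a gene. In EXT5-treated mice ILMN_2554071 ranged from 6.73 to 7.11 and ILMN_2774315 from 6.41 to 6.65, with changes of -0.39 and 0.09 relative to saline controls, not called.

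*Col15a1*, a collagen of vessel and muscle basement membranes, had a lowest, median and highest value of 6.85, 6.99 and 7.21 in EXT9-treated mice and 7.03, 7.12 and 7.29 in EXT5-treated mice, against 7.22, 7.37 and 7.51 in BLM-treated mice and 6.86, 7.16 and 7.49 in saline controls. All EXT9-treated mice were below every BLM-treated mouse. The change relative to BLM-treated mice was -0.31 ± 0.09 with EXT9 (adjusted p = 0.0721) and -0.21 ± 0.09 with EXT5 (adjusted p = 0.306), and with BLM it was 0.20 ± 0.08 relative to saline controls (adjusted p = 0.442). None was called, although the first was called in 4 of 11 other settings, over which its adjusted p-values ran from 0.0247 to 0.189. *Col18a1*, the precursor of endostatin, ranged from 9.60 to 10.49 in EXT9-treated mice (median 10.11), from 9.68 to 10.54 in EXT5-treated mice (median 10.24), from 10.04 to 10.76 in BLM-treated mice (median 10.42) and from 10.02 to 10.73 in saline controls (median 10.71). In the second run it was at 10.04, 10.24 and 10.28 in BLM-treated mice and at 10.02, 10.24 and 10.72 in saline controls. *Col18a1* (ILMN_2735184) differed by -0.44 in the second run relative to the first (adjusted p = 0.0139), so the medians over both runs cannot be set directly against those of EXT-treated mice. Its changes were -0.14 ± 0.16 with EXT9 and -0.06 ± 0.16 with EXT5 relative to BLM-treated mice, and -0.09 ± 0.14 with BLM relative to saline controls, with adjusted p-values of 0.73, 0.943 and 0.919.

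The remaining collagens outside the fibrillar and type VI classes had no call in any comparison. The 14 probes of the fibril-associated collagens, such as *Col14a1* and *Col16a1*, changed by -0.08 to 0.11 with BLM, by -0.23 to 0.09 with EXT9 and by -0.09 to 0.05 with EXT5 relative to BLM-treated mice. The 23 probes of the 9 other collagens not described above ranged from -0.21 to 0.08 with BLM relative to saline controls, and from -0.32 to 0.30 with EXT9 and from -0.36 to 0.24 with EXT5 relative to BLM-treated mice. The 43 dim member probes stayed within -0.09 and 0.09 with BLM. Probes of 1 gene did not always run the same way: of 19 genes with 2 or more bright probes, all such probes shared a sign in 16 with BLM relative to saline controls, in 9 with EXT9 and in 12 with EXT5 relative to BLM-treated mice.

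EXT5 and EXT9 were given at the same dose and over the same time. All 98 member probes were compared between them with p-values adjusted over the 45281 probes, and the changes ran from -0.28 to 0.32, for *Col1a1* at the lower end and *Col23a1* at the upper, with 0 probes called. The intervals allow differences of some size: for *Col1a1* the 95% interval ran from -0.63 to 0.06 and for *Col3a1* from -0.56 to 0.07, so that these data do not show the compounds to act alike on them. For *Col6a2* the interval was narrower, from -0.18 to 0.18.

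**Figure D4:**
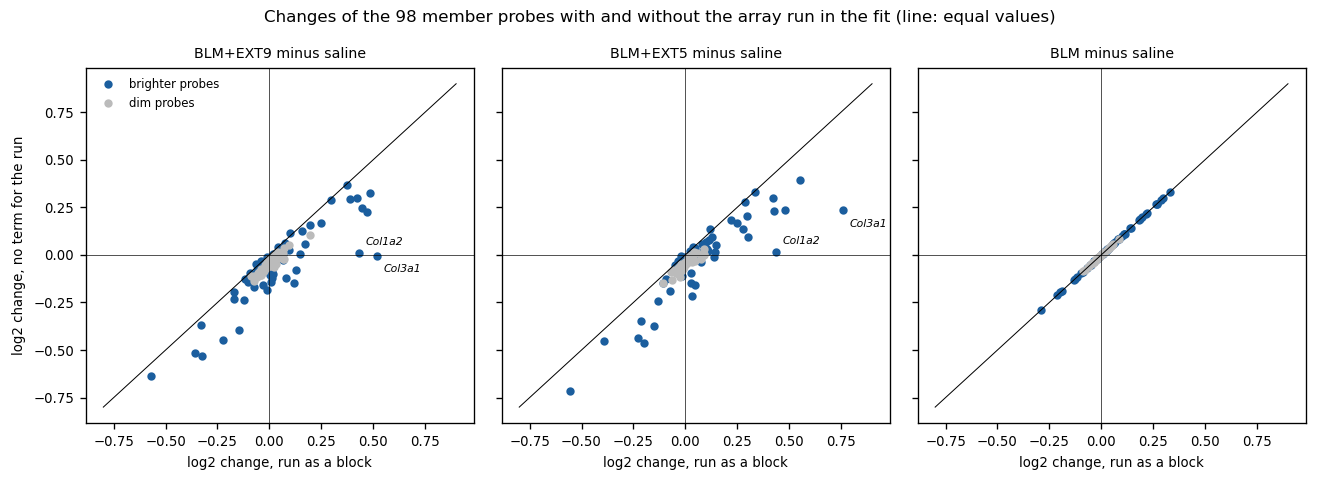
Log2 changes of the 98 member probes relative to saline controls, with the array run as a block (horizontal) and with no term for the run (vertical), for EXT9-treated, EXT5-treated and BLM-treated mice, with bright probes in blue and dim ones in grey. *Col3a1* and *Col1a2* lie farthest below the line of equal values in the EXT groups, and BLM-treated mice, balanced over the runs, lie on it.

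Genes of collagen synthesis, receptors and breakdown outside the members were called mostly relative to saline controls. Of 31 such genes measured, 28 of them bright, 0 were called with BLM. Relative to BLM-treated mice, 2 fell with EXT9, *Loxl1*, a lysyl oxidase of elastic fibres (-0.60 ± 0.12, adjusted p = 0.0121), and *Mmp14*, a membrane collagenase (-0.60 ± 0.10, adjusted p = 0.00314), and 1 rose with EXT5, *Ppib*, the prolyl isomerase cyclophilin B (0.41 ± 0.07, adjusted p = 0.00382). These are 6.45% of the list with EXT9, against 1.96% of all probes, and 3.23% with EXT5, against 1.14%. The call of *Ppib* was lost with no run term (0.17, adjusted p = 0.389). Relative to saline controls, 5 were called with EXT9, 3 higher and 2 lower (16.1%, against 7.43% of all probes), and 6 with EXT5, all higher (19.4%, against 4.37%). With no run term 2 of the 5 and 3 of the 6 kept their calls. *P4hb*, the subunit that pairs with *P4ha1*, rose by 0.26 ± 0.05 with EXT9 (adjusted p = 0.00359) and by 0.21 ± 0.05 with EXT5 (adjusted p = 0.022), and *Colgalt1*, which glycosylates hydroxylysine, by 0.39 ± 0.10 and 0.49 ± 0.10 (adjusted p = 0.0162 and 0.00475). With no run term all 4 of these calls were lost, at 0.15 with EXT9 and 0.09 with EXT5 for *P4hb* and at 0.20 and 0.31 for *Colgalt1*. *Mmp2*, gelatinase A, rose by 0.73 ± 0.13 with EXT5 (adjusted p = 0.00315). The median change of the 31 genes lay between -0.03 and 0.04 in the 6 comparisons. Each gene of the list entered by its probe with the highest mean and most were bright, so all probes are not a like background. In the fit of bright probes alone, 3656 of 22640 probes were called with EXT9 and 2479 with EXT5 relative to saline controls. Relative to BLM-treated mice, 1157 of them were called with EXT9 and 971 with EXT5.

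Markers of cell types moved in the same comparisons as the type VI and enzyme calls. Over all probes, 7.43% were called with EXT9 and 4.37% with EXT5 relative to saline controls. In the fit of bright probes alone these calls were 3656 and 2479 of 22640. Of 8 smooth muscle markers, 4 fell with EXT9 and 6 with EXT5 relative to saline controls, and the mean log2 signal of the list ran from 8.48 to 8.71 in EXT9-treated and from 8.29 to 8.89 in EXT5-treated mice, against 9.03 to 9.23 in second-run BLM-treated mice and 8.57 to 9.49 in second-run saline controls. Of 9 fibroblast markers, 1 was called, *Thy1*, which fell with both compounds relative to saline controls (-0.48 and -0.53), and the list ran from 10.16 to 10.34 in EXT9-treated and from 10.05 to 10.43 in EXT5-treated mice, against 10.16 to 10.33 in second-run BLM-treated mice and 10.33 to 10.60 in second-run saline controls. Of 6 ciliated cell markers, 3 fell with EXT9 and 5 with EXT5, and of 6 alveolar type 1 markers 4 rose with each, relative to saline controls. In the same comparisons 2 of 4 macrophage markers rose with EXT9 and 3 with EXT5, and 2 of 6 alveolar type 2 markers rose with each. Of 9 chondrocyte markers 1 fell with each compound, and of 4 cardiac muscle markers 1 fell with EXT5. Of 3 club cell markers 1 rose with EXT9, and of 3 adipocyte markers 1 rose with EXT5. No mesothelial or endothelial marker was called. In the comparisons with BLM-treated mice, where *P4ha1* was called with EXT9, 2 smooth muscle markers fell and 2 alveolar type 2 markers rose with each compound. Over all probes, 1.96% were called there with EXT9 and 1.14% with EXT5. The defining marker *Acta2* changed by -0.94 with EXT9 and -1.06 with EXT5 relative to saline controls, and *Myh11* by -1.18 and -1.38. The part of these cell types in the changes of the collagen genes was not tested. With BLM relative to saline controls, where *Serpinh1* was called, 0 genes of the 12 marker lists were called.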

How the data were processed

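Total RNA of distal lung tissue, 1 Illumina MouseWG-6 v2 array per mouse, was analysed for 24 mice. The deposited intensity values had been quantile normalized by the authors on a linear scale, in 2 sets of 6 and 18 arrays with 1 distribution of values each and median intensities of about 110.3 and 103.3. The sets were taken as the array runs, which the labels do not give per array. The design text names 5 mice measured again in the second run, whereas the larger set holds 6 arrays of BLM-treated mice and saline controls, a mismatch that was not settled. The background correction is not given in the sources used here. A table of non-normalized signals, with 48 columns whose names match no sample, was not used, and its detection p-values were left out with it. Log2 was taken with a pseudocount of 0. The platform annotation gives a single gene symbol for 34885 probes, more than 1 for 18 and no symbol for 10378.

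Group means were fitted over the 24 arrays by limma 3.58.1 (lmFit, eBayes; R 4.3.3), with the run as a block, and p-values were adjusted by Benjamini-Hochberg over all 45281 probes within each of 6 comparisons. The study's methods name significance analysis of microarrays against controls, which was not run here. The script was tested on simulated data. After the median difference of the runs was taken off, 203 probes still differed by over 1.5 (log2); 0 of these are members, for which the maximum was 0.944.

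The members and lists were chosen with earlier results of these data known. Named genes were 16 fixed members (*Col6a3* and *Loxl2* not analysed here) and every member with a called probe, each by its probe with the highest mean, with other probes where they were called or differed in direction. Alternatives were no run term, each run alone, the compared groups alone, bright probes alone, median centring, joint quantile normalization, eBayes with trend and robust, a block for the replicate number, array weights, and leaving out each array. Joint quantile normalization without a run term, and leaving out the 203 probes, were added after seeing the data. The number of arrays limits the precision.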

Additional observations from a re-analysis of the deposited data

Results flagged for a closer look

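Of 68 groups of 6 mice tested over the named probes with the run difference removed, 5 held a mouse that stood apart, by the gap to its nearest neighbour as a share of the range, above Dixon's 95% critical value; chance gives about 1 in 20 groups. Signals below are the measured log2 values, before the run difference is removed. For *Col13a1* (ILMN_2554071), saline control 2 was high at 8.04, against 6.92 to 7.42 in the other saline controls, a share of 0.672. Without it the change with EXT9 relative to saline controls was -0.33 (adjusted p = 0.0453), still called. For *Col3a1* (ILMN_1258629), the same saline control 2 was low at 7.95, against 8.10 to 9.19, a share of 0.626, and without it the call with EXT5 relative to saline controls was lost. BLM-treated mouse 3 was high for both type VI genes: *Col6a1* (ILMN_2768087) was at 12.32, against 11.72 to 12.13 in the other BLM-treated mice (share 0.666), and *Col6a2* (ILMN_1216661) was at 9.48, against 8.93 to 9.15 (share 0.628). For *Plod1*, EXT5-treated mouse 2 was high at 7.69, against 7.36 to 7.47 (share 0.657).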

How the results depend on the processing

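Over 1133 combinations of a named change and another setting, 1045 kept their direction and side of the threshold, 43 called changes were no longer called, 24 changes became called and 0 called changes turned sign. The other 21 were uncalled changes that turned sign and stayed uncalled. Most of the 1133 combinations belong to changes not called in the main fit, and all 43 losses belong to the smaller number that were called. Without a run term the count of called member probes was 4 with EXT9 relative to BLM-treated mice, all of them lower, against 2 in the fit with it, both of them higher, and 9 with EXT5 relative to saline controls (4 higher and 5 lower), against 4; with EXT9 relative to saline controls it was 12 (4 higher and 8 lower), against 8 (7 higher and 1 lower). Over all 45281 probes the calls without a run term were mostly lower too. With EXT9 relative to BLM-treated mice 2048 were called, 1774 of them lower, against 887 with the run blocked. Relative to saline controls 5864 were called with EXT9 (4800 lower), against 3364, and 3149 with EXT5 (2513 lower), against 1978. With joint quantile normalization and no run term the member counts were 1 with EXT9 relative to BLM-treated mice, and 13 with EXT9 (9 higher and 4 lower) and 8 with EXT5 (6 higher and 2 lower) relative to saline controls. Over all probes this fit called 1225, 4824 and 2829 in the same order. In second-run arrays alone the member counts were 0 with BLM, 0 with EXT9 relative to BLM-treated mice, and 2 with EXT9 and 1 with EXT5 relative to saline controls, and in first-run arrays alone 0 with BLM. Fewer arrays entered these fits. With the compared groups alone they were 0 with EXT9 relative to BLM-treated mice, and 2 with EXT9 and 0 with EXT5 relative to saline controls. Over bright probes alone 9 were called with EXT5 relative to saline controls, and with array weights 8, beside 4 with EXT9 and 1 with EXT5 relative to BLM-treated mice. Over all probes, second-run arrays alone gave 337 calls with EXT9 relative to BLM-treated mice. Relative to saline controls they gave 1080 with EXT9 and 515 with EXT5. In the same order, the compared groups alone gave 912, 747 and 389. With BLM, second-run arrays alone gave 9 and first-run arrays alone 11. Relative to saline controls, EXT5 had 2479 of 22640 over bright probes and 2563 with array weights. Array weights gave 1400 with EXT9 and 1453 with EXT5 relative to BLM-treated mice. The cause of these shifts was not tested.

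The replicate numbers are shared by the groups, and the mice were taken as unpaired. Over 36 same-numbered pairs, the correlation of their deviations ran from -0.40 to 0.37 with a median of -0.02. It was over 0.1 in 11 of them. Whether the numbers pair the mice was not tested. With the replicate number as a block, 0 member probes were called with BLM, 1 with EXT9 relative to BLM-treated mice, and 7 with EXT9 and 3 with EXT5 relative to saline controls. Over all probes, 23 were called with BLM and 731 with EXT9 relative to BLM-treated mice. Relative to saline controls, 2757 were called with EXT9 and 1634 with EXT5.

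Leaving out 1 array at a time gave 0 to 1 member probes with BLM, 0 to 4 with EXT9 and 0 to 3 with EXT5 relative to BLM-treated mice, 0 to 0 between EXT9 and EXT5, and 5 to 13 with EXT9 and 2 to 10 with EXT5 relative to saline controls. The lowest counts relative to saline controls came without saline control 4 (5 with EXT9, 2 with EXT5). The highest came without EXT9-treated mouse 1 for EXT9 (13), and without saline control 6 or EXT5-treated mouse 3 for EXT5 (10 each), followed by 8 without EXT9-treated mouse 1. Over all probes, 1909 were called with EXT9 and 914 with EXT5 without saline control 4, against 3364 and 1978 with all arrays. Without EXT9-treated mouse 1 they were 3670 and 1976. For EXT5, 3120 were called without saline control 6 and 2044 without EXT5-treated mouse 3. Relative to BLM-treated mice, EXT9 had 4 member probes called without saline control 6, 1 without BLM-treated mouse 1, 4 or 6 or EXT9-treated mouse 2 or 3, and 0 without EXT9-treated mouse 4 or 5, and EXT5 had 3 without EXT5-treated mouse 3 and 1 without EXT9-treated mouse 1. Over all probes, EXT9 had 1912 calls without saline control 6, against 887 with all arrays. It had 352, 415 and 488 without BLM-treated mouse 1, 4 and 6. Without EXT9-treated mouse 2, 3, 4 and 5 it had 856, 713, 651 and 630. EXT5 had 499 without EXT5-treated mouse 3 and 527 without EXT9-treated mouse 1, against 516 with all arrays. Of the called changes refitted in this way, 325 kept their call and 35 lost it, in each case with the same direction.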
